A study of Mus musculus with 15 samples.

Results

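The major urinary proteins were followed here in mouse liver through 9 genes, Mup1, Mup2, Mup3, Mup4, Mup5, Mup6, Mup7, Mup20 and Mup21. The 9 symbols were looked up in the gene tables of 15 livers, which hold 20325 genes each, and all 9 were present. The tables hold 20 rows of this family in all. The other 11 are Mup8, Mup9, Mup10, Mup11, Mup12, Mup13, Mup14, Mup15, Mup17, Mup19 and LOC100048884, the last of which is Mup18 in RefSeq. All 20 rows passed the filter on low counts, so that the 9 genes could each be tested among 12377.

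The livers came from male C57BL/6J mice of 19 weeks, 3 per group, in 5 groups. Germ-free mice (GF) and conventionally raised mice (ConvR), which had acquired a microbiota from birth, were each fed control breeder chow or HF/HS, a feed rich in fat and sucrose. Conventionalized mice (ConvD) were fed chow. They had been germ-free until 15 weeks of age, when they received 1 gavage of caecal contents from ConvR donors, and were studied 4 weeks later. The diets had been given since 3 weeks of age, and 44.6% of the energy of HF/HS against 23.7% of that of chow came from fat. Protein gave 14.8% of the energy of HF/HS against 23.1% of that of chow, and carbohydrate 40.6% against 53.2%. These parts of the diet changed together and cannot be told apart. Cages were shared only within a colonization state and diet, ConvR and GF mice lived in separate isolators and ConvD mice in sealed cages, so that housing and group cannot be told apart. The mice are called 1 to 3 within a group, as in the labels.

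Major urinary proteins are small secreted lipocalins. The liver of an adult male mouse makes them in very large amounts, and they pass from blood into urine, where their barrel-shaped pocket carries volatile pheromones. Their genes form a tandem cluster in which recent duplicates are almost the same in sequence. Transcription in liver is higher in males, and it depends on pulses of growth hormone, which act through STAT5B, and on androgen, thyroid hormone and glucocorticoid. Circulating MUP1 has also been studied as a regulator of glucose and lipid metabolism.

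The coding sequences show which members can be told apart by reads. The following stretch of 90 bases, coding bases 25 to 114 of Mup2 from GENCODE transcripts of GRCm38, is given for each member. It was picked as the stretch without gaps that held the most distinct sequences, 9, and then the most varying positions, 30. Members can thus be more or less alike elsewhere. The stretch holds 2 of the 3 coding positions at which Mup1 and Mup2 differ, and 4 of the 50 at which Mup20 and Mup2 differ. Untranslated ends of the transcripts were not compared. Capitals mark bases that differ from Mup2.

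Mup2: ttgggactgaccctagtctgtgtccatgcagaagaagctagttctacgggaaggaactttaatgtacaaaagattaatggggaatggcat
Mup1: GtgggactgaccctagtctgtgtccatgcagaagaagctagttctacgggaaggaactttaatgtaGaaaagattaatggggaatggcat
Mup7: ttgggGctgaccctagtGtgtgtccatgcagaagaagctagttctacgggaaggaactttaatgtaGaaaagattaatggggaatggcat
Mup3: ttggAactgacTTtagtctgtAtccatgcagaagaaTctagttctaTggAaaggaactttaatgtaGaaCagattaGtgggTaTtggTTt
Mup21: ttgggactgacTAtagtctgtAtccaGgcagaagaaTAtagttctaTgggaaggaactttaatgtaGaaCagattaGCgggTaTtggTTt
Mup20: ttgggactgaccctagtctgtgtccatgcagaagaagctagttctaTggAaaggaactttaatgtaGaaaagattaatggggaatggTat
Mup4: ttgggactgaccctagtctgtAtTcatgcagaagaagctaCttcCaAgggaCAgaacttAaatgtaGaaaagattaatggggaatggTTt
Mup5: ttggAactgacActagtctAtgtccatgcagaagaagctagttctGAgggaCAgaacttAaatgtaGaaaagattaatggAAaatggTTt
Mup6: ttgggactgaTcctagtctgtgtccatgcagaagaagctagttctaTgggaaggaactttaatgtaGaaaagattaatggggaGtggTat

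In this stretch Mup1 differed from Mup2 at 2 positions and Mup7 at 3, while Mup3 differed at 14, Mup21 at 15, Mup5 at 13 and Mup4 at 11. Mup20 differed at 4 and Mup6 at 5, so that this stretch alone does not separate them from Mup1 and Mup7 as whole coding sequences do. Over whole coding sequences the 36 pairs of members were 82.68% to 99.45% identical. The 20 rows fell into 2 classes. A near-identical class of 14 rows, which includes Mup1, Mup2 and Mup7 and all 11 rows outside the members, had for each row another that was at least 99.26% identical to it. A distinct class of 6 rows, Mup3, Mup4, Mup5, Mup6, Mup20 and Mup21, had no relative closer than 94.77%. Of all stretches of 50 coding bases of Mup2, 0.0% occurred in no other row, against 5.06% for Mup1, 10.12% for Mup7, 75.69% for Mup3, 95.37% for Mup20 and 99.8% for Mup6. Levels of Mup1, Mup2 and Mup7 therefore come from reads that the RSEM program divided among rows, and are uncertain as single genes. Sums are given first for that reason, while most reads of the distinct class can be assigned.

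Depth was 14737578 to 21794811 expected counts per liver. Hepatocyte markers were detected in every liver, and summed to 64927 to 132652 TPM (a level per transcript length, scaled within a library). Some libraries stood apart. The 28 acute phase genes summed to 131645 and 160666 TPM in ConvR chow 1 and 2, against 19178 to 28901 TPM in the other 13 livers. Immediate early genes summed to 1353 TPM in GF chow 1, against 89.7 to 378 TPM elsewhere. The rank correlation of a gene's level with its length lay between -0.341 and 0.277 over the livers. Their part in the Mup results was not tested, but values without these libraries and with the length trend removed are given where they changed a call.

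The 9 members together were among the main products of every liver, and they were lowest in 2 of the 3 ConvR mice on HF/HS. In CPM, which are counts relative to library totals scaled by TMM, their sum was 46835, 50040 and 53522 in GF chow mice, 50907, 52789 and 53856 in ConvR chow mice, and 38557, 34848 and 43798 in ConvD chow mice. On HF/HS it was 44542, 44681 and 43488 CPM in GF mice, and 22583, 15132 and 43462 CPM in ConvR mice 1, 2 and 3. ConvR HF/HS 1 and 2 lay below all 13 other livers, while ConvR HF/HS 3 lay just below the 3 GF HF/HS livers in CPM and, at 84701, above them in TPM.

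By group the member sum was 50132 ± 3344 CPM in GF chow, 52518 ± 1493 in ConvR chow, 39068 ± 4497 in ConvD chow, 44237 ± 652 in GF HF/HS and 27059 ± 14686 in ConvR HF/HS (mean ± SD, n = 3 each). The SD of ConvR HF/HS was the largest of the 5 groups. In TPM the means were 89269 ± 747, 84876 ± 4619, 75454 ± 7685, 79457 ± 2050 and 56519 ± 25229 in the same order. The order of GF and ConvR on chow was thus opposite in the 2 units, and the other groups kept theirs. The members made up between 3.60% (ConvR HF/HS 2) and 8.97% (GF chow 1) of all TPM.

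**Figure D1:**
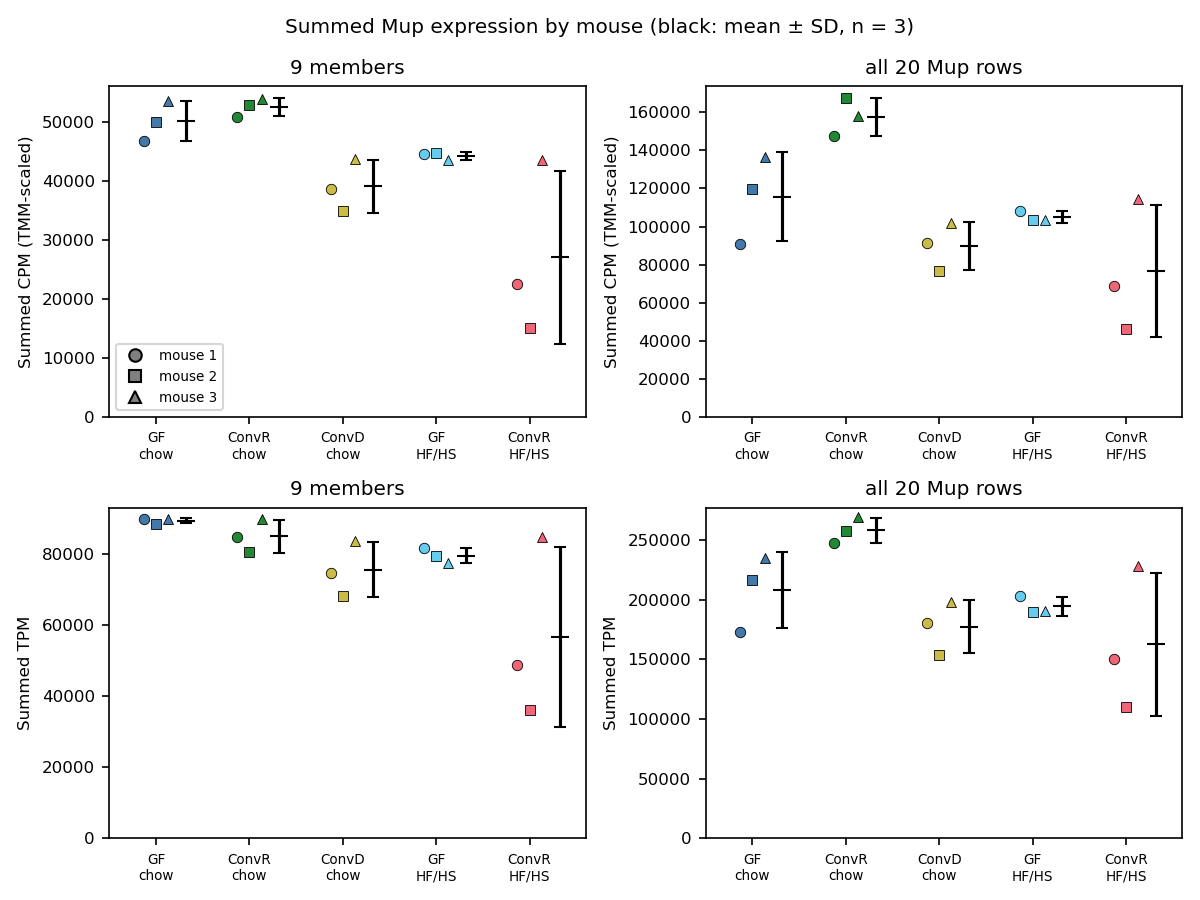
Summed level of the 9 members (left) and of all 20 Mup rows (right) in each liver, as TMM-scaled CPM (top) and TPM (bottom), with axes from 0. Points are mice by group, and black bars the group mean ± SD (n = 3). ConvR HF/HS 1 and 2 sit at 22583 and 15132 CPM of members, and ConvR HF/HS 3 at 43462.

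All 20 rows together made up 11.01% to 26.9% of TPM, and the 9 members 31.2% to 52.0% of that. The family sum was 90737, 119869 and 136541 CPM in GF chow mice, 147501, 167422 and 157822 in ConvR chow mice, and 91106, 76852 and 101886 in ConvD chow mice. On HF/HS it was 108358, 103330 and 103302 CPM in GF mice and 68765, 46370 and 114288 in ConvR mice. ConvR chow livers were thus the 3 highest of the 15 when all rows were counted, which the 9 members alone do not show. In the near-identical class as a whole ConvR chow held 144173 ± 10562 CPM and GF chow 99856 ± 21604, whereas the distinct class held 13409 ± 1254 CPM in ConvR chow and 15860 ± 1593 in GF chow (SD, n = 3). Over a liver, fewer hepatocytes of a kind and less Mup RNA per cell cannot be told apart in these data.

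HF/HS was compared with chow in ConvR mice to ask how diet relates to the family where a microbiota is present. The member sum was 0.515 times its chow level, a log2 fold change of -0.96 ± 0.29 (SE), called by edgeR's quasi-likelihood test (adjusted p = 0.0416). In CPM the 3 HF/HS livers were all below the 3 chow livers. In TPM they were not, since ConvR HF/HS 3 at 84701 lay above ConvR chow 1 and 2 at 84637 and 80381 (exact permutation p = 0.3). The sum over all 20 rows fell by 1.04 ± 0.29 on the log2 scale (edgeR adjusted p = 0.0274). Without ConvR HF/HS 1 and 2 together, the difference of the member sum was -0.27 with an edgeR adjusted p of 0.575, so that the call rests on those livers. It was also lost without any 1 of ConvR HF/HS 1 (-0.84), ConvR HF/HS 2 (-0.67), ConvR chow 1 (-0.98) or ConvR chow 2 (-0.95), and with the length trend removed (-0.80, edgeR adjusted p = 0.0856).

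In GF mice the same change of diet left the member sum at -0.18 ± 0.29 (edgeR adjusted p = 0.741), although the 3 HF/HS livers, at 43488 to 44681 CPM, lay below the 3 chow livers, at 46835 to 53522. With the length trend removed this difference was 0.03. The difference between the 2 diet effects, tested as an interaction, was -0.78 ± 0.41 for the member sum and was not called (edgeR adjusted p = 0.450). In that test 0 of 9 members were called by edgeR and 0% of the 12377 genes. An unadjusted edgeR p below 0.05 was found for 2 members and for 1573 of all genes.

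Between colonization states, no difference of the member sum was called. On chow the sum differed by 0.07 ± 0.29 between ConvR and GF (edgeR adjusted p = 0.914), and the sign turned to -0.07 in TPM. ConvD differed from GF by -0.36 ± 0.29 (edgeR adjusted p = 0.471) and from ConvR by -0.43 ± 0.29 (edgeR adjusted p = 0.394), with ConvD livers below every liver of the other 2 groups in CPM. The sum over all rows differed by 0.45 ± 0.29 between ConvR and GF and by -0.81 ± 0.29 between ConvD and ConvR (edgeR adjusted p = 0.367 and 0.108). On HF/HS, ConvR differed from GF by -0.71 ± 0.29 (edgeR adjusted p = 0.251). Without ConvR HF/HS 3 this became -1.23 with an edgeR adjusted p of 0.0120. An exact permutation test of 3 against 3 mice cannot go below 0.1, which it reached for the member sum in CPM in every pair of groups compared except ConvR and GF on chow (exact p = 0.3). In TPM the test reached 0.1 for ConvD against GF and for the diets in GF mice, and gave exact p = 0.2 for ConvR against GF on chow and for ConvD against ConvR, 0.3 for the diets in ConvR mice and 0.4 for ConvR against GF on HF/HS.

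Mup1, the member after which the circulating protein is named, was lowest in ConvR HF/HS mice. Its level was 7600, 10862 and 9235 TPM in GF chow, 7477, 8128 and 8702 in ConvR chow, and 5614, 5761 and 6942 in ConvD chow. On HF/HS it was 5556, 5871 and 6803 TPM in GF mice and 1444, 394 and 3774 in ConvR mice. All 3 ConvR HF/HS livers lay below the 12 others. Of the 9 members, 2 were called lower by edgeR in ConvR mice on HF/HS against chow, Mup1 and Mup2, and 0 higher. Of all genes tested, 7.8% were called lower and 6.75% higher there, 14.6% in all. Mup1 differed by -2.50 ± 0.56 (edgeR adjusted p = 0.00926). Without ConvR HF/HS 1 and 2 it was -1.44 (edgeR adjusted p = 0.0293), with the remaining liver assumed to vary like the other groups. When the 2 groups were fitted alone the adjusted p was 0.0807, and without ConvR chow 1 and 2 it was 0.0819.

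Mup7 held the largest mean share of the member sum on chow, where it made up 38.9% of it in ConvR mice and 35.8% in GF mice by TPM. Its levels were 25421, 34197 and 36346 TPM in GF chow, 31383, 30745 and 37094 in ConvR chow, and 24017, 21467 and 26758 in ConvD chow. On HF/HS they were 31628, 32324 and 33025 TPM in GF mice and 11770, 4444 and 31240 in ConvR mice. Mice 1 and 2 of the last group stood below all other livers and mouse 3 lay close to GF HF/HS. The difference between diets in ConvR mice was -1.40 ± 0.49 and missed the threshold (edgeR adjusted p = 0.0708). The log2 levels of Mup7 and Mup1 followed each other over the 15 libraries (Pearson r = 0.960, as a description), and the closest coding sequence to both is that of Mup12. Without ConvR HF/HS 3 the difference between diets was -2.45 (edgeR adjusted p = 0.00121).

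Mup2, of which no stretch of 50 coding bases is its own, was the member called most often. It was 29714, 14058 and 13541 TPM in GF chow, 23232, 22578 and 18430 in ConvR chow, and 9046, 7157 and 9678 in ConvD chow. On HF/HS it was 10961, 8501 and 8276 TPM in GF mice and 10000, 7033 and 12848 in ConvR mice. Every GF and ConvR chow liver lay above every liver of the other 3 groups. GF chow 1, the highest of the 15, was also the liver with the lowest Mup10 and Mup11, at 5529 and 169 CPM.

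Mup2 was called in 4 comparisons, which share control livers. In ConvR mice it was lower on HF/HS than on chow by -1.48 ± 0.31 on the log2 scale (edgeR adjusted p = 0.00589). In GF mice the difference was -1.08 ± 0.30 (edgeR adjusted p = 0.0391), and Mup2 was the 1 member of 9 called lower there, beside 5.45% of genes called lower and 9.55% called either way. Against ConvR on chow, ConvD differed by -1.59 ± 0.31 (edgeR adjusted p = 0.0156), and against GF by -1.27 ± 0.30 (edgeR adjusted p = 0.0304). In each of these 2 comparisons Mup2 was again the 1 member of 9 called. Genes called lower were 3.3% against ConvR and 3.34% against GF, and genes called either way 5.5% and 5.59%. These calls rest on few livers. The differences from GF chow were not called without GF chow 1, at -0.83 for ConvD and -0.64 for HF/HS (edgeR adjusted p = 0.105 and 0.165), nor without any 1 of the 3 ConvD or the 3 GF HF/HS livers. ConvD against ConvR was not called without any 1 of ConvR chow 1, ConvR chow 2, ConvD 1 or ConvD 2 (-1.63 to -1.47). The difference between diets in ConvR mice kept its call without each single liver, but not without ConvR chow 1 and 2 together (-1.20, edgeR adjusted p = 0.129) or ConvR HF/HS 1 and 2 together (-1.03, edgeR adjusted p = 0.204).

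**Figure D2:**
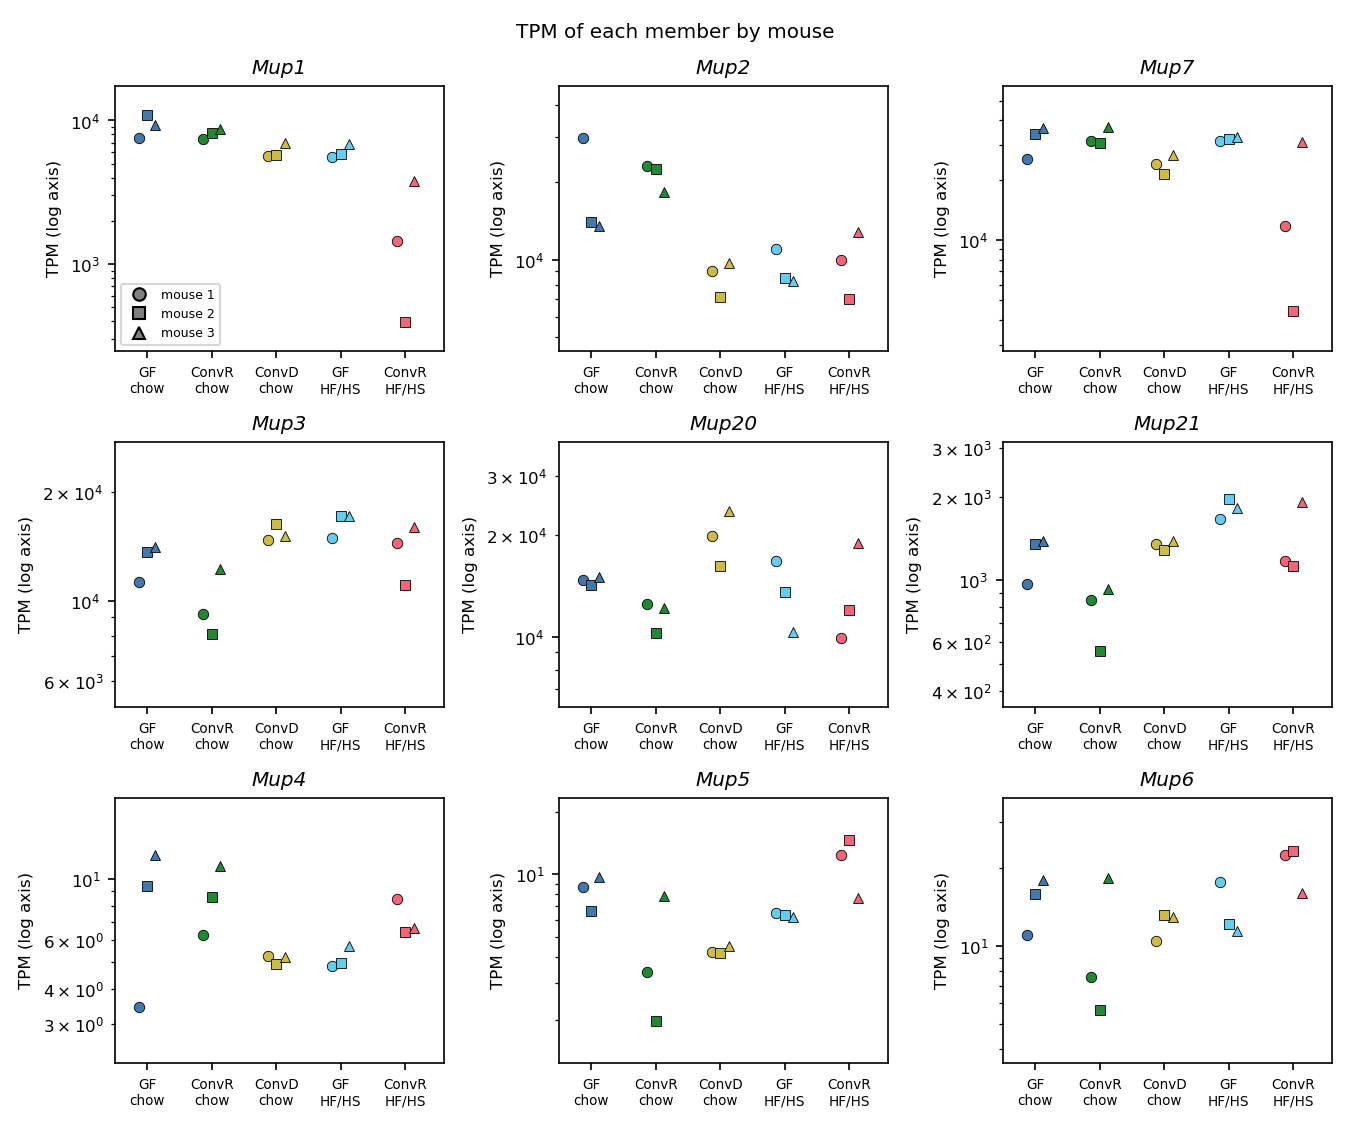
Level of each member in TPM (log axis) in each of the 15 livers, by group, with mice 1 to 3 as circles, squares and triangles. Mup1 and Mup7 are low in ConvR HF/HS 1 and 2, Mup2 is high in the GF and ConvR chow groups, and Mup4, Mup5 and Mup6 reach at most 23.3 TPM.

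ConvR and GF mice were compared on each diet to ask how the presence of a microbiota relates to single members. On chow 0 of 9 members were called by edgeR, beside 4.72% of genes. There 2 members had an unadjusted edgeR p below 0.05, beside 2895 of all 12377 genes. On HF/HS 0 of 9 were called, beside 1.62% of genes, and 4 had an unadjusted edgeR p below 0.05, beside 1876 of the 12377 genes. The largest difference of the second comparison was that of Mup1, at -1.93 ± 0.55 (edgeR adjusted p = 0.0949), which the DESeq2 Wald test called (adjusted p = 0.0154). Mup7 differed by -1.17 ± 0.49 (edgeR adjusted p = 0.257). Without ConvR HF/HS 3, edgeR called Mup1 at -3.06, Mup7 at -2.23 and Mup21 at -0.92.

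Among the distinct members, Mup20 encodes darcin, an involatile protein of male urine that attracts females. It was 14701, 14250 and 15034 TPM in GF chow, 12514, 10264 and 12154 in ConvR chow, and 19896, 16184 and 23591 in ConvD chow. On HF/HS it was 16770, 13539 and 10320 TPM in GF mice and 9906, 11975 and 18913 in ConvR mice. The ConvD livers were above the GF and ConvR chow livers on this scale, and no edgeR comparison called the gene. In CPM, ConvR HF/HS 1 and 2 were lowest, at 4517 and 5057, near GF HF/HS 3 at 5450. The diets differed in ConvR mice by -0.15 ± 0.25, and the sign turned in TPM, at 0.17, and without normalization factors, at 0.04.

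Mup3 and Mup21, each the closest relative of the other, spanned a narrower fold range over the 15 livers than the near-identical members. Within ConvR chow they varied more in CPM, with an SD of 17.5% and 20.2% of the mean. There it was 10.2% for Mup1, 15.8% for Mup2 and 7.3% for Mup7. Mup3 was 11288, 13658 and 14110 TPM in GF chow, 9164, 8091 and 12263 in ConvR chow and 14726, 16313 and 15126 in ConvD chow. On HF/HS it was 14918, 17216 and 17154 TPM in GF mice and 14482, 11025 and 15989 in ConvR mice. ConvR chow 1 and 2 were lowest in TPM, whereas in CPM ConvR HF/HS 2 was lowest, at 4778. Mup21 was the least abundant of these members, at 558 to 1963 TPM over the 15 livers, and was lowest in ConvR chow 2 on both scales. Neither gene was called by edgeR in any of the 7 comparisons. Their differences were between -0.44 and 0.38 for Mup3 and between -0.55 and 0.52 for Mup21, and their log2 levels had a Pearson r of 0.885 over the 15 libraries.

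Between ConvD and ConvR chow livers, members differed in both directions. In CPM, 7 of 9 members had ranges that did not overlap. Mup1, Mup2, Mup4 and Mup7 were lower in ConvD, beside 15.1% of genes that separated downward, and Mup3, Mup20 and Mup21 were higher, beside 15.1% that separated upward. The differences of Mup3, Mup20 and Mup21 were 0.38 ± 0.20, 0.50 ± 0.25 and 0.52 ± 0.23, and edgeR called none of them (adjusted p = 0.268, 0.252 and 0.197). On log2(TPM + 1), limma-trend called all 3, with adjusted p of 0.0323, 0.0414 and 0.0167. Acute phase genes, which were high in ConvR chow 1 and 2, summed to 160666 TPM in the second of these livers, and a TPM sums to the same total in every library. Their part in the difference between the units was not tested.

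Mup4, Mup5 and Mup6 were near the floor of the family. Mup4 and Mup5 are known mainly from glands and nasal tissue rather than from liver. Mup4 lay between 3.45 and 12.2 TPM over the 15 livers, Mup5 between 1.97 and 14.6, and Mup6 between 5.64 and 23.3. Mup5 was the member with the largest upward difference on HF/HS against chow in ConvR mice, at 0.99 ± 0.33, which missed the threshold (edgeR adjusted p = 0.0562). The DESeq2 Wald test called it (adjusted p = 0.0214). Some calls among these 3 genes appeared when 1 liver was left out. Without ConvR chow 3, edgeR called Mup5 and Mup6 higher on HF/HS in ConvR mice (1.64 and 1.21), lower in ConvR than in GF mice on chow (-1.46 and -1.03) and in the interaction (2.08 and 1.40). Without GF chow 1 it called Mup4 lower than in GF chow, by -1.25 in ConvD chow and -1.14 in GF HF/HS. By TPM, the order of the other members on ConvR chow was Mup7, Mup2, Mup20, Mup3, Mup1 and Mup21. In that group the range of Mup3 overlapped those of Mup20 and Mup1, so that these places do not differ beyond the spread.

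**Figure D3:**
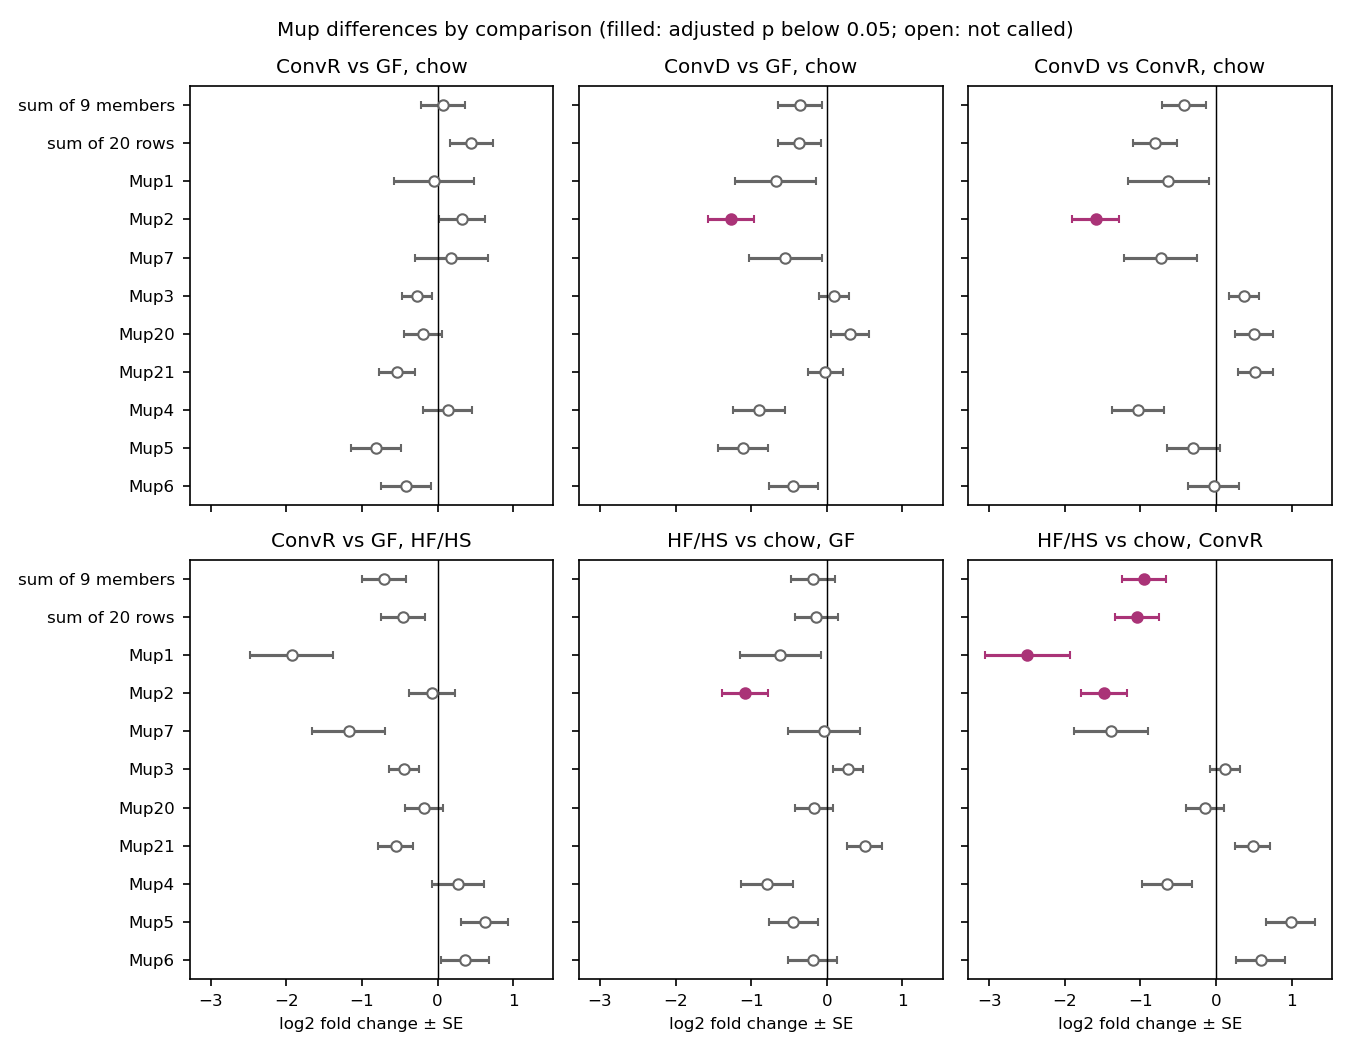
Log2 fold change ± SE of the member sum, the sum over 20 rows and each member in 6 comparisons, from edgeR, with filled points where the adjusted p was below 0.05. Filled points are the Mup2 row in 4 comparisons, and Mup1 and both sums for HF/HS against chow in ConvR mice.

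The 11 rows outside the members, all of the near-identical class, showed what the reads of Mup1, Mup2 and Mup7 are divided with. For HF/HS against chow in ConvR mice, edgeR called 4 of the 11 lower, beside 7.8% of all genes, and 0 higher, with a median log2 fold change of -1.40, against -0.15 for the 9 members and -0.02 for all genes. The 4 were Mup14 (-1.91 ± 0.42), Mup15 (-1.71 ± 0.42), Mup17 (-1.22 ± 0.31) and LOC100048884 (-2.12 ± 0.46). For ConvD against ConvR on chow it called 3 of 11 lower, beside 3.3% of all genes, Mup15 at -2.19 ± 0.43, Mup17 at -1.90 ± 0.32 and LOC100048884 at -2.03 ± 0.46. Mup12, whose coding sequence differs from that of Mup1 at 2 positions, was 1959, 1808 and 3344 CPM in ConvR chow livers and 312, 65.9 and 1446 CPM in ConvR HF/HS livers, without a call (edgeR adjusted p = 0.0883).

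**Figure D4:**
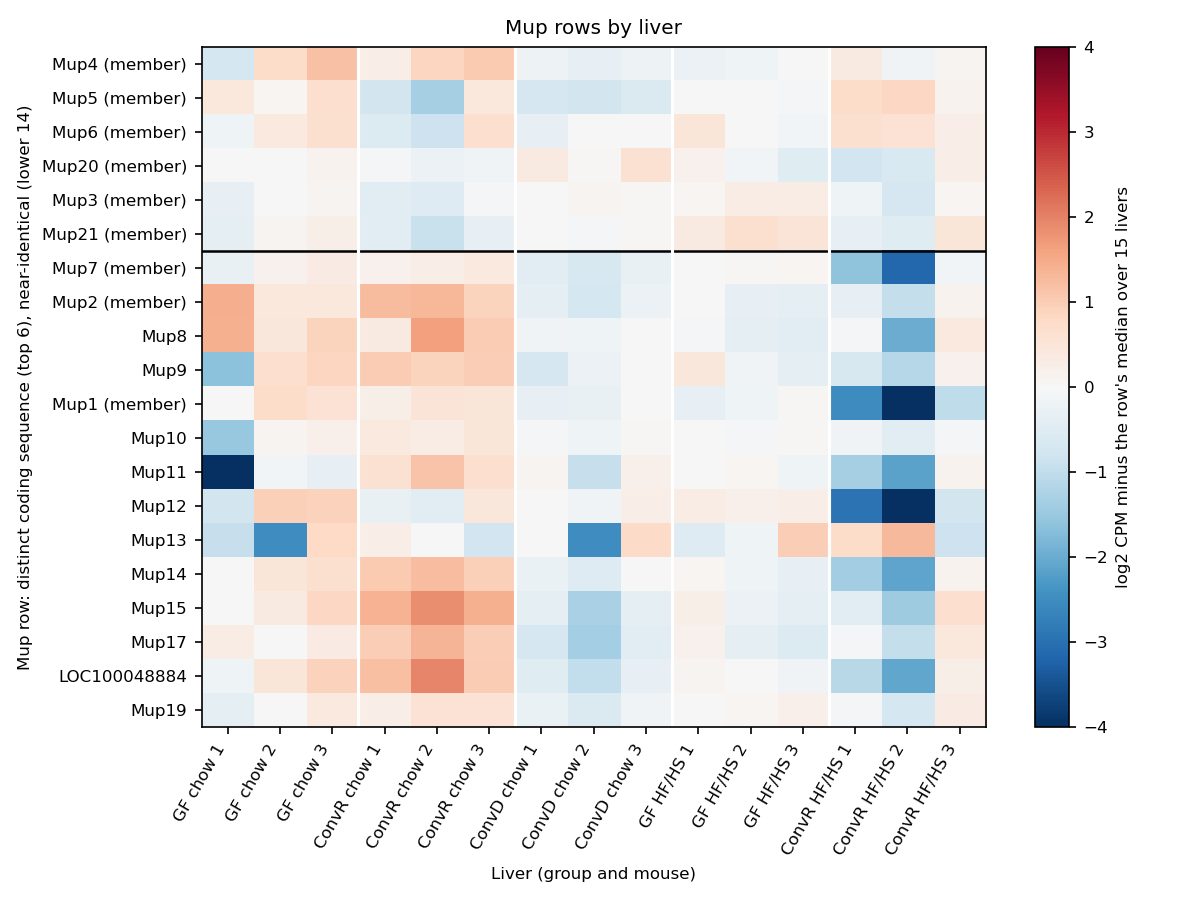
Log2 CPM of each of the 20 Mup rows in each liver, minus the row's median over the 15 livers, with colours ending at -4 and 4. The 6 distinct rows stand above the black line and the 14 near-identical rows below it, where Mup1, Mup7, Mup12 and Mup14 are low in ConvR HF/HS 1 and 2 and Mup11 in GF chow 1. Mup13 has under 2 CPM in every liver.

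The 250 bases before the RefSeq start sites of Mup2 and Mup3 (GRCm38.p6, minus strand) are printed because Mup2 was called in 4 comparisons and Mup3 in none. They lie on chromosome 4 at chr4:60139857-60140106 and chr4:62087318-62087567. Capitals mark a match to TATATAA, in the direction of transcription or on the other strand.

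Mup2: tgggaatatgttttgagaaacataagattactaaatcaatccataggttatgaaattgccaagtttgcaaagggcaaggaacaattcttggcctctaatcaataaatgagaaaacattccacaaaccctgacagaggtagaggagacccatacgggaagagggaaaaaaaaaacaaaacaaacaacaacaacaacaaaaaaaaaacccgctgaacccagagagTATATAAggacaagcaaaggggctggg
Mup3: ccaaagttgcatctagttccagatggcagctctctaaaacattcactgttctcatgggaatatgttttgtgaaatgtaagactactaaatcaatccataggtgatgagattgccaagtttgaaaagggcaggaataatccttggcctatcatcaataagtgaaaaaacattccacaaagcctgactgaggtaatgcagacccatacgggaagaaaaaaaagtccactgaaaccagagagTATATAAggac

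The promoter table held 6 of the 9 members, Mup2, Mup3, Mup4, Mup6, Mup7 and Mup21. TATATAA was found in 5 of the 6 windows, all but that of Mup7, and in 3.038% of 32851 windows of the same length. It began at -29 from the start site in Mup4 and Mup6, -27 in Mup2, -11 in Mup3 and -8 in Mup21. The windows are thus shifted against each other. The last bases of the Mup7 window match bases that lie well before TATATAA in the Mup2 window. Its absence for Mup7 therefore says only that it is not in these bases. The letters TTCNNNGAA, the core to which STAT5 proteins bind, were in 0 of the 6 and in 7.02% of all windows, which says only that they are not in these bases. The sequence TGTTCT, a half-site of the glucocorticoid receptor, was in the windows of Mup3 and Mup21, and in 16.085% of all. The Mup2 and Mup3 windows were 57.24% identical, and those of Mup3 and Mup21 89.06%. These values also hold the shift between windows, and not only differences of sequence.

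Few genes of growth hormone signalling, hormone receptors and liver transcription factors passed the test. Of 23 genes of this list, 22 were tested, and for HF/HS against chow in ConvR mice edgeR called 0, with 14.6% of all genes called. The smallest p values there were those of Jak2, the kinase of the growth hormone receptor, at 0.25 ± 0.09, and of Stat5b, at 0.39 ± 0.16 (edgeR adjusted p = 0.0830 and 0.114). Jak2 was called higher in GF mice on HF/HS (0.33 ± 0.09, edgeR adjusted p = 0.0379), and Stat5b lower in ConvR than in GF mice on chow (-0.63 ± 0.16, edgeR adjusted p = 0.0410). Stat5b was 80.5, 67.3 and 76.3 CPM in ConvR HF/HS mice 1, 2 and 3, so that the livers low in Mup1 and Mup7 did not stand apart in it. Over the whole list they did on 1 scale. Its mean log2 CPM was 4.58 and 4.74 in ConvR HF/HS 1 and 2, below all other livers. It was 5.09 in ConvR HF/HS 3 and 4.77 to 5.25 in the other groups. The summed TPM of the list, 1275 and 1251 in ConvR HF/HS 1 and 2, lay within the range of the other groups, 946.5 to 1408. The part of this list in the Mup levels was not tested.

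Other genes that are higher in male liver were also low in the livers low in Mup1 and Mup7. For HF/HS against chow in ConvR mice, edgeR called 9 of 20 male-biased genes lower, beside 7.8% of all genes, and 0 higher, beside 6.75%, with a median of -1.15, against -0.02 over all genes. Among them were Susd4 (-1.63 ± 0.22) and Selenbp2 (-4.06 ± 0.61). Of a list of 21 female-biased genes only 10 passed the filter on low counts, which a gene near 0 on chow could pass through the groups where it was high, so that no count or median is given for it. Ntrk2, a neurotrophin receptor, was 3.32 to 12.1 CPM in ConvR HF/HS and 0.482 to 0.660 in ConvR chow. The cytochrome Cyp2b9 was 4.09 to 38.0 CPM in ConvR HF/HS and at most 0.181 in ConvR chow, whereas Cyp2b10 was 0.273 to 1.99 CPM in ConvR HF/HS and 3.80 to 13.8 in ConvR chow. In GF mice 4 of 20 male-biased genes were called lower on HF/HS, beside 5.45% of all genes, with a median of -0.71. The lists share no gene with the Mup rows.

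By liver, male-biased genes summed to 4516, 3636 and 9625 TPM in ConvR HF/HS 1, 2 and 3, to 7905 to 10356 in GF HF/HS, and to 18228 to 26365 on chow. Female-biased genes summed to 101, 115 and 25.0 TPM in ConvR HF/HS 1, 2 and 3. They summed to 29.6 to 81.3 TPM in GF HF/HS and to 9.80 to 40.3 on chow. In the male-biased sum GF HF/HS livers thus lay below all chow livers, while their member sum lay within the chow range. Serpina1e, a serpin of male liver, was 599, 164 and 2685 CPM in ConvR HF/HS and 11688 to 18222 CPM in ConvR chow.

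**Figure D5:**
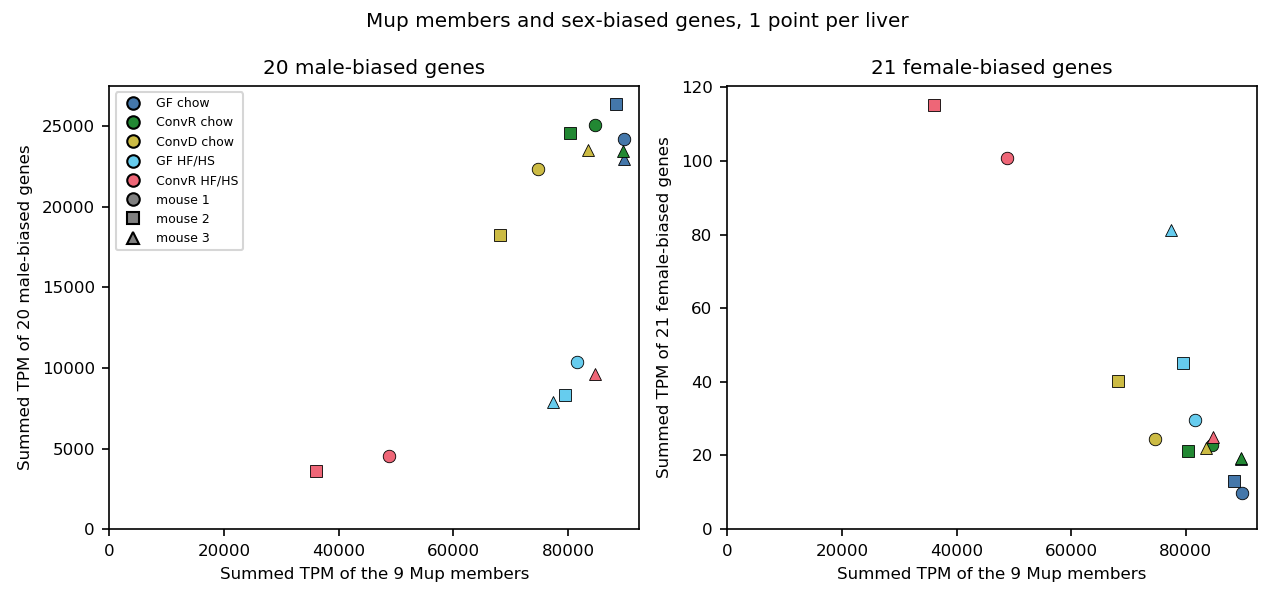
Summed TPM of the 9 members (x axis) against that of 20 male-biased genes (left) and 21 female-biased genes (right), 1 point per liver, with axes from 0. ConvR HF/HS 1 and 2 (red circle and square) have the lowest male-biased sums, 4516 and 3636 TPM, and the highest female-biased sums, 101 and 115 TPM.

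Of 6939 genes outside the family with a mean of at least 10 CPM, those whose log2 CPM was most like that of the member sum over the 15 libraries were Avpr1a (Pearson r = 0.914, Spearman rho = 0.900), Serpina1e (0.909, 0.800), C8b (0.904, 0.750), Susd4 (0.897, 0.707) and Serpina1a (0.897, 0.582). They encode a vasopressin receptor, 2 serpins, a complement component and a regulator of complement. Without ConvR HF/HS 1 and 2 the values of r fell to 0.694, 0.494, 0.520, 0.402 and 0.345, so that the likeness rests largely on those livers. The Serpina1 genes share reads with their own paralogs. Avpr1a was 15.7, 11.3 and 21.3 CPM in ConvR HF/HS and 40.0 to 49.2 CPM in ConvR chow, and the groups did not overlap.

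Other liver secretory genes did not share one pattern with the Mups. Of 24 secreted plasma protein genes, edgeR called 7 lower and 0 higher for HF/HS against chow in ConvR mice, beside 7.8% and 6.75% of all genes, with a median of -0.25. Among the 7 were Fgg (-1.20 ± 0.28) and Fgb (-1.26 ± 0.29), whose CPM ranges overlapped between the diets. Fgb is also on the list of acute phase genes, whose sum was high in ConvR chow 1 and 2. Fetub, a fetuin, was 212, 214 and 237 CPM in ConvR HF/HS and 354 to 460 CPM in ConvR chow (-0.89 ± 0.10), and thus was low in all 3 livers rather than in 2. Alb, which encodes albumin, was 65382, 72040 and 64957 CPM in ConvR HF/HS, so that ConvR HF/HS 1 and 2 were not low in it. Of 9 tested lipocalins outside the family, 6 were called lower, beside the same 7.8%, led by Orm2 and Lcn2 (-6.46 ± 0.78 and -6.06 ± 0.84), which are acute phase genes and were high in ConvR chow 1 and 2. Apom, a lipocalin of lipoproteins, differed by -0.92 ± 0.13, and it was also lower in ConvR than in GF mice on HF/HS (-0.62 ± 0.13, edgeR adjusted p = 0.0292).

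Markers of other cell types were set beside the low Mup levels of ConvR HF/HS 1 and 2. The 6 adipocyte markers summed to 35.5 and 94.6 TPM in these livers, against 13.8 in ConvR HF/HS 3 and 0.630 to 23.8 in the other 12. Of that list Cidec, which is also a lipid droplet gene of fatty hepatocytes, held 28.7 and 81.7 TPM, and Adipoq, Lep and Plin1 were at 0 in both livers. The 7 cholangiocyte markers summed to 91.0 and 194 TPM there and to 49.6 to 147 elsewhere. The 9 endothelium markers summed to 223, 264 and 242 TPM in ConvR HF/HS 1, 2 and 3, and to 148 to 215 in the other 12. The 9 stellate cell markers summed to 249 and 303 TPM in ConvR HF/HS 1 and 2. They summed to 220 in ConvR HF/HS 3 and 173 to 241 in the other 12. Their mean log2 CPM was 4.55 and 4.74 in ConvR HF/HS 1 and 2, and 4.08 to 4.61 elsewhere. Kupffer cell markers summed to 565 and 561 TPM in these 2 livers, and to 383 to 722 elsewhere. Neutrophil markers summed to 9.27 and 9.7 TPM (5.82 to 143 elsewhere). T or NK cell markers summed to 5.04 and 4.39 (2.78 to 8.07), and B or plasma cell markers to 6.35 and 3.87 (1.9 to 7.39). Red blood cell markers summed to 1182 and 980 (481 to 1485), and exocrine pancreas markers to 19.4 and 15.8 (18.8 to 62.6). The 12 hepatocyte markers summed to 108768 and 122823 TPM in these 2 livers, to 98703 in ConvR HF/HS 3 and to 64927 to 132652 in the other 12. Their mean log2 CPM was 11.98 and 11.83 in the 2 livers, 11.85 in ConvR HF/HS 3 and 11.90 to 12.32 in the other 12, so that ConvR HF/HS 2 was the lowest of the 15 on that scale. The part of these markers in the Mup differences was not tested.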

How the data were processed

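RNA of 15 livers was sequenced from stranded libraries of messenger RNA, per the labels' protocols. The authors aligned reads to the mouse build mm9 with Bowtie2 and used RSEM 1.2.23, per the submitters' processing notes. Per the file headers, the deposited tables give for each gene an RSEM expected count, not scaled between libraries, a TPM value scaled by the authors within each library, and a length in bases. The transcripts listed for each Mup row were looked up in RefSeq. Those of Mup7, Mup8, Mup9 and Mup13 matched none, so that these rows are linked to their sequences by symbol alone. Those of LOC100048884 matched Mup18, and those of every other row the row's own symbol.

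The members, gene lists and tests were chosen with earlier results of these data known. Expected counts were rounded to whole numbers, filtered by filterByExpr (minimum count 10) and scaled by TMM in edgeR 4.0.16 (R 4.3.3). The model held all 15 libraries and 1 mean per group, with 10 residual degrees of freedom. The quasi-likelihood F test (two-sided) was adjusted by Benjamini-Hochberg over all genes and called below 0.05. Each standard error was the size of the log2 fold change divided by the root of F. The sum of the 9 members, or of all 20 rows, replaced their rows in fits of its own. Log2 CPM used a prior count of 2. The labels call the replicates biological, and in every group they differed beyond counting noise.

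Named genes were all members, up to 4 genes of each list with the smallest p in the comparison described, the 5 genes most like the member sum, Alb and a few marker genes of libraries that stood apart. Rows chosen after their values were seen are those of the family outside the members and Cidec. Alternatives used DESeq2 1.42.0, limma 3.58.1 (voom, and trend on log2(TPM + 1) or log2(TPM + 0.1)), other scalings, filters (none, or a minimum count of 50) and samples, and a lowess trend on gene length (span 0.5). The fit was tested on simulated data of 12283 genes. All were given the same biological coefficient of variation, 0.149, and changed genes had a mean expected count of at least 50. For HF/HS against chow in ConvR mice it recovered 94 of 100 genes set to a 2-fold change and 100 of 100 set to 4-fold, with 8 false calls. For ConvR against GF on HF/HS the recovery was the same, with 17 false calls. The SD of the member sum in ConvR HF/HS was 54.3% of its mean, and recovery at such a spread was not simulated. Sequences were read with Biopython 1.88 from GENCODE transcripts and RefSeq promoters, matched by symbol. Gene positions in mm9 were not used here.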

Additional observations from a re-analysis of the deposited data

How the results depend on the processing

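The member sum on HF/HS against chow in ConvR mice kept its call with DESeq2 size factors, scaling without the Mup rows, either filter, the DESeq2 Wald test, limma-voom and the replicate block (-1.03). It lost it without normalization factors (-0.77), with limma-trend on log2(TPM + 1) and log2(TPM + 0.1) (-0.68 both), with the 2 groups fitted alone (-0.95), with the length trend removed (-0.80), and without ConvR chow 1 and 2 (-0.99) or, chosen after seeing the data, ConvR HF/HS 1 and 2 (-0.27). Leaving out 1 library gave -1.48 to -0.67 there and -1.23 to -0.42 for ConvR against GF on HF/HS, which was called only without ConvR HF/HS 3.

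Counts of members called moved as follows. For HF/HS against chow in ConvR mice 2 became 4 without normalization factors, with the DESeq2 Wald test and with limma-voom, 6 with both TPM settings, 1 with the groups fitted alone, 0 without ConvR chow 1 and 2, 1 without ConvR HF/HS 1 and 2, and 2 to 4 with 1 library left out. For HF/HS against chow in GF mice 1 became 0 with both TPM settings, the groups alone, the length trend removed and with 1 library left out (0 to 1). For ConvD against GF 1 became 2 with the DESeq2 Wald test, 0 with log2(TPM + 0.1), the groups alone and the length trend removed, and 0 to 1 with 1 library left out. For ConvD against ConvR 1 became 2 with the DESeq2 Wald test, 4 with both TPM settings, 0 without ConvR chow 1 and 2, and 0 to 1 with 1 library left out. For ConvR against GF on HF/HS 0 became 1 with the DESeq2 Wald test and both TPM settings, and 0 to 3 with 1 library left out. With 1 library left out, ConvR against GF on chow gave 0 to 2 and the interaction 0 to 2, and both TPM settings gave 1 for the interaction.

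No called difference changed sign. The sign changed in 81 of 1397 differences of the sum or a member that were called under neither setting. Of 1251 differences of single members under an alternative, 42 gained and 24 lost a call. The replicate numbers of the labels did not pair the livers: 2 of 30 same-numbered pairs had correlated deviations above 0.1, and 3 of 15 libraries correlated best with their own number. With the block, Mup7 gained a call for HF/HS against chow in ConvR mice (-1.61, edgeR adjusted p = 0.0392). Where only 1 liver of a group remained, it was assumed to vary like the other groups. Depth limits Mup4, Mup5 and Mup6, which rest on few counts, more than the abundant members.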
